A study of Mus musculus with 26 samples.

Results

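Expression was compared between 2 sorted populations of mouse blood progenitors that both carried the signal of a Gata1 reporter, the GMP GFP+ gate (3 arrays) and the PreGM GFP+ gate (3 arrays), which together make up 6 of the 26 arrays of the study. The members of this comparison were all 19938 genes that the array's annotation names on a probe set of 1 gene. GMP stands for granulocyte-macrophage progenitor and PreGM for its presumed forerunner, the pre-granulocyte-macrophage progenitor. Every group came from the bone marrow of mice of genotype Gata1-EGFP Tg/+ aged 8 to 15 weeks, so all arrays, reporter-negative ones included, carry the transgene. Per the labels, both gates took cells that were Lin-, cKit+, Sca1- and CD41-. GMP cells were FcgRII/III+, whereas PreGM cells were FcgRII/III- and also CD150- and CD105-, and EGFP-positive cells were taken from each. The same gates without EGFP gave GMP GFP- (4 arrays) and PreGM GFP- (3 arrays), and PreMegE cells (3 arrays), forerunners of platelets and red cells, were FcgRII/III-, CD150+ and CD105- with no reporter gate. The other groups of the study were HSC GFP- (3 arrays), LMPP (4 arrays) and CLP (3 arrays).

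Gata1 is a transcription factor needed to make red cells, platelets, eosinophils and mast cells, and it is also used by basophils. Granulocyte-macrophage progenitors have classically been defined by their Fc gamma receptors and give rise mainly to neutrophils and monocytes. A reporter of Gata1 marks those cells within such gates in which the gene's regulatory elements are active, and the comparison asks how expression differs between such cells in the PreGM gate and in the later GMP gate. Eosinophils, basophils and mast cells store basic proteins, ribonucleases, proteases and histamine in granules, and basophils and mast cells release them through the high-affinity IgE receptor.

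Biotin-labelled cRNA was hybridised to Affymetrix Mouse Gene 1.1 ST arrays, and all values are log2 signals, 1 for each gene and array. The number of arrays limits the precision, and since the labels do not say whether replicates came from separate animals, each p-value reflects only how much these samples vary, which could be technical. In sorted bulk samples a larger share of expressing cells and more RNA per cell cannot be told apart. The median of all values, 6.61, is used below as a level under which signals were not shown to exceed background. Differences from a mean under it are differences of signal and are not turned into folds. The medians of the 6 arrays lay between 6.57 and 6.70, and their correlations ran from 0.964 to 0.982 within GMP GFP+ and from 0.972 to 0.984 within PreGM GFP+. The reporter's gene was measured at 8.12, 7.92 and 8.21 in the GMP GFP+ arrays, against 8.70, 8.01 and 8.74 in the PreGM GFP+ arrays, for a difference of -0.40 (95% interval -0.78 to -0.01) that did not pass adjustment (limma, adjusted p = 0.648). Reporter-negative cells averaged lower for Gata1, at 6.42 in GMP GFP- and 6.73 in PreGM GFP-. The receptor that defines the GMP gate went with the labels: Fcgr3 read 10.01, 10.19 and 9.14 in GMP GFP+, against 7.27, 7.20 and 6.95 in PreGM GFP+, which is a property of the sort and not a finding. Of the defining markers of other cells, none of 21 B lymphoid, 20 T and NK lymphoid, 20 dendritic cell and 20 stroma and endothelium genes passed in limma, and at an unadjusted p under 0.05 the counts were 0, 0, 0 and 2. The stroma list averaged 6.20 to 6.39 over the GMP GFP+ arrays and 6.13 to 6.23 over the PreGM GFP+ arrays, and the B lymphoid list 6.22 to 6.26 and 6.19 to 6.23 in the same order. In both groups array 2 had the lowest signals of the Y-linked genes Eif2s3y, Kdm5d and Uty, for instance 5.23 for Uty in GMP GFP+ array 2 and 5.63 in PreGM GFP+ array 2, against 6.55 to 6.99 in the other 4 arrays. The part of this difference in the results was not tested.

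Limma's moderated test, fitted to all 26 arrays with Benjamini-Hochberg adjustment over every gene, called 203 genes at an adjusted p under 0.05. Of these, 158 were higher in GMP GFP+ (0.792% of the genes tested) and 45 were lower (0.226%). The difference was at least 2-fold on the signal scale for 109 of the higher and 25 of the lower genes. For 157 of the 158 higher genes each GMP GFP+ array lay above each PreGM GFP+ array, and 44 of the 45 lower genes were separated the other way. The exceptions were Gm10768 and Trib2. Single arrays mattered for these counts: the 158 became 105 without PreGM GFP+ array 2, and the 45 became 24 without GMP GFP+ array 1 and 25 without PreGM GFP+ array 3. Over all genes, such separation was seen for 7.17% on the higher side and 5.86% on the lower side. At an unadjusted p under 0.05 in limma, 855 of all 19938 genes were higher and 631 were lower, which is the background for the unadjusted counts of the lists. In PreGM GFP+ the mean lay below the median signal for 66 of the 158 higher genes (41.8%). In GMP GFP+ the mean of the lower genes lay below it for 4 of 45 (8.89%). The median divides all values evenly, and for scale 44.3% of all genes lay below it in both reporter-negative groups. The share of all genes below it in GMP GFP+ or PreGM GFP+ was not counted, so neither count is read as a trait of the called genes. The median difference over all genes was 0.01.

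The 2 largest rises, of Prg2 and Ear6, were in eosinophil granule genes. The list of eosinophil genes had 6 of 14 measured members higher and 0 lower (11 and 0 at an unadjusted p under 0.05), with a median difference of 0.68. Prg2, which encodes major basic protein, the crystalline core of the eosinophil granule, read 12.86, 12.85 and 12.09 in the GMP GFP+ arrays, against 8.35, 5.89 and 6.54 in the PreGM GFP+ arrays. The groups lay far apart, and within PreGM GFP+ the first array stood well above the others. The difference was 5.67 (SE 0.49, limma adjusted p = 1.19e-07), which made Prg2 the most changed gene of the comparison. Its homologue Prg3 read 11.26, 11.09 and 10.42 in GMP GFP+, against 6.45, 6.08 and 6.16 in PreGM GFP+, for a difference of 4.70 (SE 0.28, adjusted p = 2.4e-10). All 3 PreGM GFP+ arrays were below the median signal for Prg3. Ear6, an eosinophil-associated ribonuclease, read 11.42, 11.80 and 10.04 in GMP GFP+, against 6.66, 5.89 and 6.15 in PreGM GFP+, for a difference of 4.85 (adjusted p = 2.4e-10). The ribonucleases of this family are alike in sequence, so the signal of Ear6 may include relatives. Rnase12, another member of the ribonuclease A superfamily, read 11.82, 12.08 and 11.13 in GMP GFP+, against 7.37, 7.97 and 7.60 in PreGM GFP+. This corresponds to a 16.3-fold higher signal. Epx, the eosinophil peroxidase, varied little between arrays of a group, at 8.77, 9.14 and 8.86 in GMP GFP+ and 5.62, 5.65 and 5.45 in PreGM GFP+ (difference 3.35, SE 0.16, adjusted p = 1.01e-11). Il5ra, the receptor chain that makes eosinophils respond to interleukin 5, rose by 0.97 but stayed dim, at 5.88 ± 0.12 in GMP GFP+ and 4.91 ± 0.10 in PreGM GFP+ (SD, n = 3 arrays each). Genes of 2 surface proteins of mature eosinophils did not pass: Siglecf averaged 7.72 in GMP GFP+ and 7.57 in PreGM GFP+, and the eotaxin receptor Ccr3 averaged 6.53 and 5.86 in the same order (adjusted p = 0.881 and 0.152).

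Genes of mast cells and basophils rose as well, with 15 of 38 measured members higher and 0 lower (23 and 0 at an unadjusted p under 0.05) and a median difference of 0.61. Mcpt8, a protease of basophil granules, read 12.36, 12.37 and 11.98 in GMP GFP+, against 6.71, 8.63 and 7.05 in PreGM GFP+, for a difference of 4.77 (SE 0.38, adjusted p = 4.77e-08). Here PreGM GFP+ array 2 was the highest of its group. Gzmb, the cytotoxic protease granzyme B, read 11.35, 11.39 and 11.09 in GMP GFP+, against 6.41, 6.61 and 8.20 in PreGM GFP+, where array 3 was the highest (difference 4.20, SE 0.28, adjusted p = 1.73e-09). The array that stood highest among the PreGM GFP+ samples therefore differed between Prg2, Mcpt8 and Gzmb. Prss34, a basophil and mast cell tryptase-like protease, read 9.45, 9.98 and 9.36 in GMP GFP+, against 6.25, 6.09 and 6.55 in PreGM GFP+ (difference 3.30, SE 0.17). Il6, the gene of the cytokine interleukin 6, was more variable, at 7.68, 7.64 and 5.93 in GMP GFP+ and 4.03, 3.91 and 4.45 in PreGM GFP+, and GMP GFP+ array 3 was itself below the median signal.

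The IgE receptor rose in part. Fcer1a, the chain that binds IgE, read 10.73, 11.27 and 9.69 in GMP GFP+, against 7.16, 8.59 and 7.56 in PreGM GFP+ (difference 2.79, SE 0.40, adjusted p = 0.000221). Ms4a2, the beta chain, was already present in the earlier gate: it averaged 10.87 ± 0.69 in GMP GFP+ and 8.96 ± 0.42 in PreGM GFP+ (difference 1.91, adjusted p = 0.00029). Fcer1g, the signalling gamma chain that other Fc receptors share, averaged 9.50 ± 0.52 in GMP GFP+ and 8.11 ± 0.13 in PreGM GFP+ and did not pass (adjusted p = 0.421). Among genes of mediator synthesis, Hdc, which makes histamine, averaged 9.68 in GMP GFP+ and 7.95 in PreGM GFP+, and Alox5, the first enzyme of leukotriene synthesis, averaged 9.19 in GMP GFP+ and 7.17 in PreGM GFP+. These are rises of 1.73 and 2.02. Milr1, an inhibitory receptor of mast cells, rose by 2.24, although its adjusted p of 0.0059 became 0.0518 without PreGM GFP+ array 2. Its mean of 7.95 in GMP GFP+ lay below those of reporter-negative cells, 8.69 in GMP GFP- and 9.25 in PreGM GFP-. The other members that rose were Csf2rb, Ndst2, Cma1, Hpgds, Lat2 and Cd200r3. Bright members of the list that did not pass were Srgn, the proteoglycan core of granules, at 12.34 in GMP GFP+ and 11.96 in PreGM GFP+, and Cd63, a granule membrane protein, at 11.74 and 11.002 in the same order. Kit, the receptor that keeps mast cells alive and was part of both gates, averaged 10.35 in GMP GFP+ and 10.42 in PreGM GFP+. Cpa3, the mast cell carboxypeptidase, was separated on all arrays, at 11.64, 11.54 and 11.20 in GMP GFP+ and 9.63, 9.98 and 9.44 in PreGM GFP+, but missed the threshold (adjusted p = 0.065). Proteases of mature connective-tissue and mucosal mast cells stayed dim: Mcpt1 averaged 4.99 in GMP GFP+ and 4.75 in PreGM GFP+, and Tpsb2 averaged 6.49 and 6.34 in the same order, all below the median signal.

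**Figure D1:**
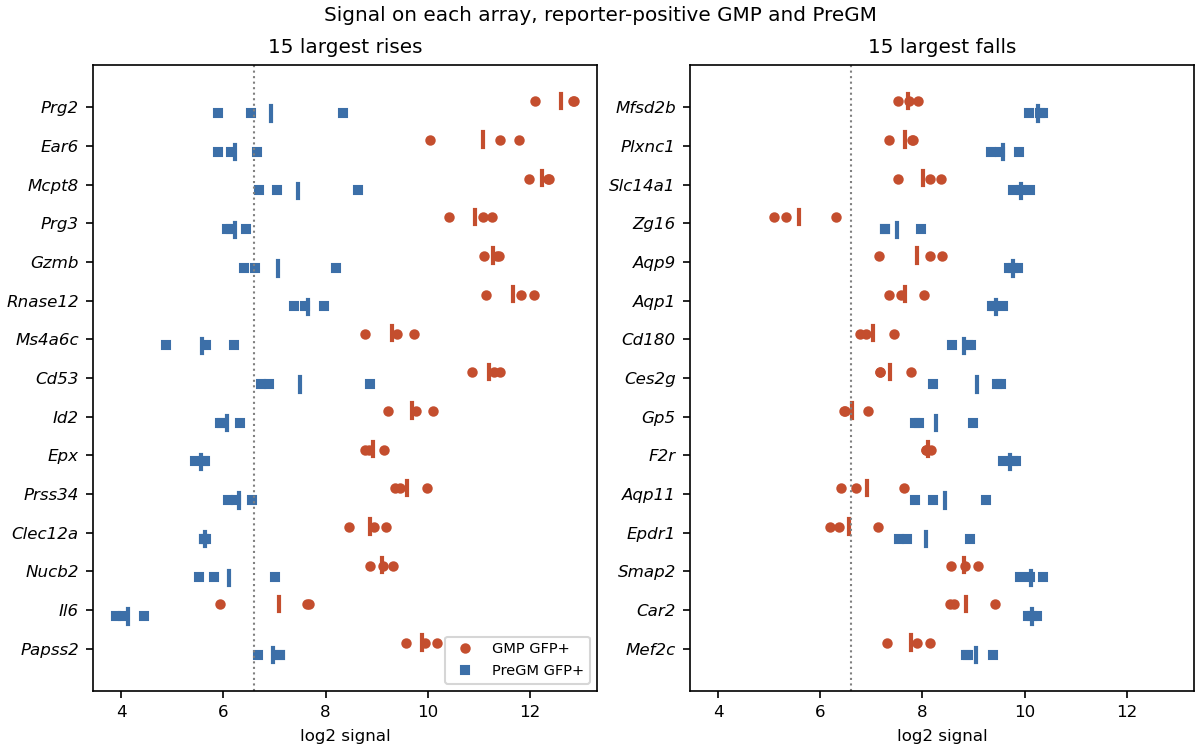
Log2 signal of the 15 genes with the largest rise (left) and the 15 with the largest fall (right), with circles for the 3 GMP GFP+ arrays and squares for the 3 PreGM GFP+ arrays. Short bars are group means and the dotted line is the median of all values, 6.61. Prg2 reached 12.86 in GMP GFP+ and lay between 5.89 and 8.35 in PreGM GFP+, while Mfsd2b lay between 7.52 and 7.91 in GMP GFP+ and between 10.08 and 10.37 in PreGM GFP+.

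A further set of large rises was in leukocyte surface and regulatory genes that are not part of the granule programmes. Ms4a6c, a membrane protein of monocytes and macrophages, read 9.39, 9.73 and 8.76 in GMP GFP+, against 6.20, 4.88 and 5.66 in PreGM GFP+ (difference 3.71, SE 0.61, adjusted p = 0.00131). Cd53, a leukocyte tetraspanin, read 11.30, 11.41 and 10.87 in GMP GFP+, against 6.89, 6.74 and 8.86 in PreGM GFP+ (difference 3.69, SE 0.36). Clec12a, an inhibitory lectin receptor of myeloid cells, averaged 8.87 ± 0.37 in GMP GFP+ and 5.64 ± 0.02 in PreGM GFP+. Ms4a6c and Clec12a lay below the median signal in the earlier gate and Cd53 above it on each array, and all 3 were well above it in the later gate. Cd53, Ms4a6c and Clec12a were also bright in reporter-negative cells, which the granule genes of eosinophils were not. The basophil granule gene Mcpt8 was bright there too, at 9.34 in GMP GFP- and 8.78 in PreGM GFP-, above its mean of 7.46 in PreGM GFP+. Clec12a averaged 10.22 in GMP GFP- and 9.17 in PreGM GFP-. Mean signals of Cd53 were 10.81 in GMP GFP-, 10.87 in PreGM GFP- and 6.65 in PreMegE. Ms4a6c averaged 10.26 in GMP GFP-, 10.76 in PreGM GFP- and 5.18 in PreMegE, and Emb, an adhesion protein of the immunoglobulin family that rose by 2.79, averaged 11.08, 11.15 and 6.21 in the same order. By contrast, Prg2 averaged 6.35 in GMP GFP-, 5.93 in PreGM GFP- and 5.99 in PreMegE, and Epx averaged 5.58, 5.53 and 5.64. In the reporter-negative cells of both gates, the means of 53 of the 158 higher genes (33.5%) lay below the median signal, against 44.3% of all genes.

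Among the remaining large rises, Id2, an inhibitor of E-protein transcription factors, is described with the regulators. Nucb2, a calcium-binding protein of the secretory pathway, read 9.13, 9.33 and 8.87 in GMP GFP+, against 5.53, 7.0 and 5.81 in PreGM GFP+ (difference 2.995, SE 0.53). Papss2, which makes the sulfate donor used for proteoglycans such as heparin, read 9.94, 10.17 and 9.57 in GMP GFP+, against 7.11, 6.69 and 7.10 in PreGM GFP+, a 7.62-fold higher signal (difference 2.93, SE 0.27, adjusted p = 4.31e-07). Ndst2, an enzyme that sulfates heparin in mast cells, rose by 1.37. The 3 called genes Cyp11a1, Il17rb and Hrh4 lie outside the naming rule and were chosen after their values were seen. Cyp11a1, the enzyme that starts steroid synthesis, averaged 8.20 in GMP GFP+ and 5.75 in PreGM GFP+. Il17rb, a receptor chain for interleukin 25, averaged 8.51 and 6.98 in the same order, and Hrh4, the histamine H4 receptor, averaged 6.31 and 4.95.

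Genes of the primary granules, the first granules made in neutrophil development, were higher as well. Of 18 measured members 8 were higher and 0 lower (15 and 0 at an unadjusted p under 0.05), and the median difference was 0.95. The list averaged 8.83 to 9.14 over the GMP GFP+ arrays, against 10.57 in GMP GFP- and 9.14 in PreGM GFP-. Ctsg, the granule protease cathepsin G, read 11.56, 11.52 and 10.96 in GMP GFP+, against 8.26, 8.78 and 8.73 in PreGM GFP+ (difference 2.76, SE 0.39, adjusted p = 0.000177). Ms4a3, a marker of granulocyte-monocyte progenitors, averaged 11.09 ± 0.46 in GMP GFP+ and 8.49 ± 0.28 in PreGM GFP+. Mpo, the myeloperoxidase, was bright in both gates, at 12.84, 12.90 and 12.90 in GMP GFP+ and 11.13, 11.45 and 11.52 in PreGM GFP+ (difference 1.51, SE 0.25). Elane, the neutrophil elastase, rose by 1.76, to 8.38 ± 0.25 in GMP GFP+, against 6.62 ± 0.32 in PreGM GFP+. The other members that rose were Gstm1, Serpinb1a, Prss57 and Calr, and Prtn3, proteinase 3, did not pass (difference 0.96, adjusted p = 0.209). The count of 8 became 5 without GMP GFP+ array 1, GMP GFP+ array 2 or PreGM GFP+ array 1, and 5 when arrays were centred on their medians or only the compared arrays were used. Leaving out 1 array lost the call of Gstm1 for 5 of the 6 arrays (adjusted p up to 0.239) and that of Serpinb1a for 4 (up to 0.131). With the replicate number as a block in limma, the call of Gstm1 was lost as well (adjusted p = 0.0506). Genes of later granules were higher for 2 of 25, Anxa1 (difference 1.95) and the regulator Cebpe (1.32). Of 28 monocyte and macrophage genes, 4 were higher and 0 lower: Ms4a6c, Clec12a, the chemokine receptor Cx3cr1 (1.28) and the inhibitory receptor Sirpa (1.09). The call of Cx3cr1 was lost without GMP GFP+ array 3 (adjusted p = 0.0541).

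The falls were led by genes of red cells. Of 33 measured erythroid genes, 8 were lower and 0 higher (15 and 1 at an unadjusted p under 0.05), with a median difference of -0.40. The count of 8 became 4 without GMP GFP+ array 1 and 5 without GMP GFP+ array 3. Mfsd2b, which exports sphingosine-1-phosphate from red cells and platelets, read 7.73, 7.52 and 7.91 in GMP GFP+, against 10.08, 10.37 and 10.31 in PreGM GFP+. This is a 5.79-fold lower signal in GMP GFP+ (difference -2.53, SE 0.15, adjusted p = 2.4e-10), and the 6 arrays were cleanly separated. Slc14a1, the urea transporter that carries the Kidd blood group, read 7.51, 8.14 and 8.36 in GMP GFP+, against 9.92, 9.77 and 10.11 in PreGM GFP+ (difference -1.93, SE 0.38, adjusted p = 0.00777, or 0.0715 without GMP GFP+ array 1). Aqp1, the water channel of the red cell membrane, read 7.35, 8.03 and 7.58 in GMP GFP+, against 9.37, 9.57 and 9.40 in PreGM GFP+ (difference -1.79, SE 0.17, adjusted p = 4.73e-07). For both genes the GMP GFP+ arrays remained above the median signal. Ces2g, a carboxylesterase, averaged 7.37 ± 0.36 in GMP GFP+ and 9.07 ± 0.74 in PreGM GFP+. Car2, a carbonic anhydrase of red cell precursors, averaged 8.86 ± 0.49 in GMP GFP+ and 10.14 ± 0.09 in PreGM GFP+ (difference -1.29, adjusted p = 0.00781), a call that was lost without GMP GFP+ array 1 or array 3 (adjusted p = 0.0645 and 0.0667). Ermap, a blood group protein, fell by 1.13, and its call was lost without either of GMP GFP+ arrays 1 and 3 or PreGM GFP+ arrays 1 and 3 (adjusted p 0.0679 to 0.153). The other falls were Hemgn, a nuclear protein of red cell precursors, by 0.91 and Bcl11a, the repressor of fetal globin, by 0.85.

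Several erythroid genes did not pass the test. Car1, a carbonic anhydrase made early in red cell development and the brightest gene of the list, read 10.76, 10.95 and 10.81 in GMP GFP+, against 11.89, 12.02 and 12.12 in PreGM GFP+. The arrays did not overlap, but the difference of -1.17 (95% interval -1.84 to -0.49) did not pass adjustment (adjusted p = 0.122). In GMP GFP- cells Car1 averaged 6.19, far below the level in the reporter-positive cells of the same gate. Klf1, the master regulator of erythroid genes, averaged 7.20 in GMP GFP+ and 7.52 in PreGM GFP+, the erythropoietin receptor Epor averaged 7.23 and 7.25 in the same order, and the transferrin receptor Tfrc averaged 8.83 and 8.93. None of 18 genes of heme synthesis and iron handling passed in limma, with 2 higher and 2 lower at an unadjusted p under 0.05. In several alternatives 1 was called lower: without GMP GFP+ array 2 and with only the compared arrays. The same count came from array weights, quantile normalization, the filter on dim genes and the replicate block.

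Platelet genes fell in 2 of 19 cases, with 0 higher and a median of -0.09 (0 and 5 at an unadjusted p under 0.05). Gp5, platelet glycoprotein V, read 6.49, 6.93 and 6.46 in GMP GFP+, against 7.93, 8.99 and 7.85 in PreGM GFP+, so that it lay near the median signal in GMP GFP+ (difference -1.63, SE 0.29, adjusted p = 0.00273). F2r, the thrombin receptor PAR1, read 8.17, 8.07 and 8.06 in GMP GFP+, against 9.57, 9.76 and 9.83 in PreGM GFP+ (difference -1.62, SE 0.16, adjusted p = 6.72e-07). Itga2b, the CD41 chain that both gates excluded, averaged 8.57 in GMP GFP+ and 8.63 in PreGM GFP+. Pf4, platelet factor 4, read 4.85, 4.57 and 5.01 in GMP GFP+, against 5.60, 6.29 and 7.32 in PreGM GFP+, and did not pass (adjusted p = 0.228).

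Other genes among the 15 largest falls have no single lineage. Plxnc1, a semaphorin receptor, read 7.34, 7.80 and 7.82 in GMP GFP+, against 9.90, 9.35 and 9.51 in PreGM GFP+ (difference -1.93, SE 0.24, adjusted p = 3.67e-05). The channel Aqp9, which carries glycerol and water, read 7.16, 8.38 and 8.15 in GMP GFP+, against 9.77, 9.69 and 9.87 in PreGM GFP+ (difference -1.88, SE 0.28). With Aqp1 and Aqp11, 3 members of the aquaporin family were among these 15 falls. Zg16, a secretory lectin, and Epdr1, a protein of the ependymin family, fell by 1.93 and 1.49 to means below the median signal, 5.58 and 6.56, against 7.50 and 8.06 in PreGM GFP+. Cd180, a relative of the Toll-like receptors, fell by 1.77, Smap2, a GTPase-activating protein of membrane traffic, by 1.30, and Mef2c, a transcription factor of lymphoid and platelet development, by 1.26. Aqp11 had the weakest evidence of the 30 named genes (adjusted p = 0.0462), and its call was lost without any of 4 arrays, with an adjusted p of up to 0.351. Calls were also lost without 1 array for Cd180 (up to 0.118, 4 arrays), Epdr1 (up to 0.0876, 3 arrays), Mef2c (up to 0.121, GMP GFP+ array 2 or PreGM GFP+ array 3) and Smap2 (0.0514, PreGM GFP+ array 3).

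**Figure D2:**
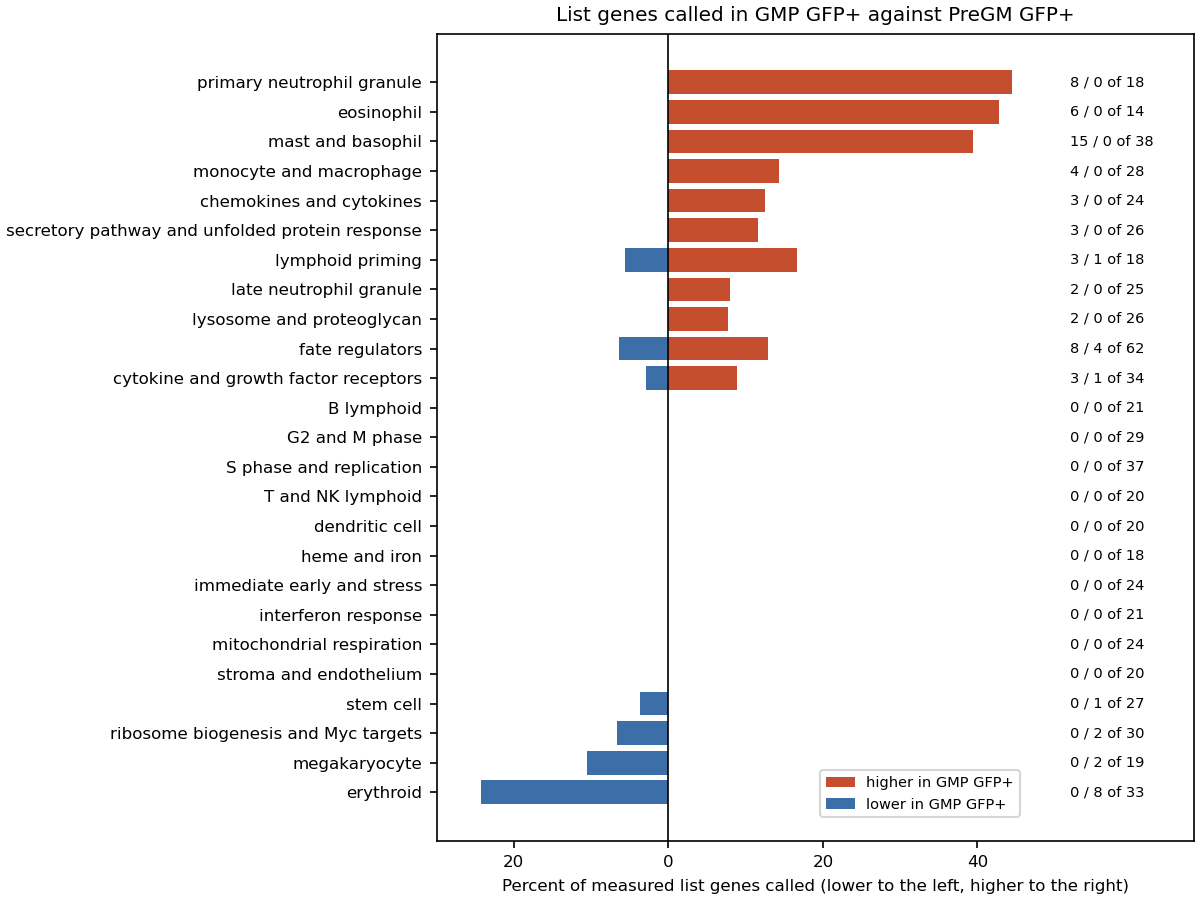
Share of the measured genes of each list that were called higher (right) or lower (left) in GMP GFP+ against PreGM GFP+, with the counts of higher and lower genes and of measured genes printed beside each bar. Primary neutrophil granule, eosinophil and mast and basophil genes had 8 of 18, 6 of 14 and 15 of 38 members higher, and erythroid genes had 8 of 33 lower. Lists with no bar had 0 called genes. The lists were drawn up with earlier results of these data known.

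Receptors for growth factors changed in 4 of 34 cases, 3 higher and 1 lower, with a median of 0.07. The rises were in Il5ra and in the 2 beta chains of receptors for eosinophil, basophil and mast cell cytokines. Csf2rb, the signalling chain shared by the receptors for interleukin 3, interleukin 5 and GM-CSF, read 9.0, 9.09 and 9.66 in GMP GFP+, against 7.23, 7.69 and 7.64 in PreGM GFP+ (difference 1.73, SE 0.37, adjusted p = 0.0159). Its mouse paralogue Csf2rb2, which serves interleukin 3 alone, read 9.12, 9.53 and 8.93 in GMP GFP+, against 7.0, 6.59 and 7.77 in PreGM GFP+ (difference 2.07, SE 0.22, adjusted p = 1.95e-06). The 2 genes are near-identical copies, so their probe sets may read each other's RNA. The call of Csf2rb was lost without GMP GFP+ array 3 or PreGM GFP+ array 1 (adjusted p = 0.114 and 0.105). The ligand-binding chains of interleukin 3 and GM-CSF did not pass: Il3ra averaged 8.15 in GMP GFP+ and 7.83 in PreGM GFP+, and Csf2ra averaged 8.72 and 8.70. Tgfbr3, a co-receptor for transforming growth factor beta, was the 1 receptor that fell, by 0.74, and its call was lost without GMP GFP+ array 1 or 2 or PreGM GFP+ array 1 or 2 (adjusted p up to 0.114). Of 24 chemokine and cytokine genes, 3 were higher and 0 lower. Besides Il6 these were Ccl9, a chemokine of myeloid cells, which rose by 1.69, and Csf1, the macrophage growth factor, which averaged 7.78 ± 0.13 in GMP GFP+ and 6.24 ± 0.23 in PreGM GFP+.

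Transcription factors and cofactors of blood cell fate had 8 of 62 measured members higher and 4 lower, with a median of 0.03. Id2, which blocks E proteins and favours innate lymphoid and myeloid fates over B cells, read 9.76, 10.10 and 9.22 in GMP GFP+, against 5.97, 5.94 and 6.33 in PreGM GFP+ (difference 3.62, SE 0.37, adjusted p = 1.7e-06). Its difference was the largest of the called regulators. Lmo4, a LIM-only adaptor, read 10.97, 11.19 and 10.83 in GMP GFP+, against 9.30, 9.41 and 9.19 in PreGM GFP+ (difference 1.70, SE 0.28). Its relative Lmo2 and the partner of both, Ldb1, which join Gata1 and Tal1 in erythroid complexes, went the other way. Lmo2 read 9.0, 8.88 and 9.03 in GMP GFP+, against 9.63, 9.99 and 10.17 in PreGM GFP+ (difference -0.96, SE 0.13, adjusted p = 7.85e-05), and Ldb1 fell by 0.76 (adjusted p = 0.0479). Cebpa and Cebpe, factors of the granulocyte line, rose by 0.86 and 1.32, and Mitf, a factor of mast cells and basophils, rose by 1.12 to 7.16 ± 0.54 in GMP GFP+, against 6.04 ± 0.19 in PreGM GFP+. Runx1, a factor of blood stem and progenitor cells, read 10.38, 10.29 and 10.33 in GMP GFP+, against 9.31, 9.23 and 9.53 in PreGM GFP+ (difference 0.98, SE 0.19). The remaining rises were Ets1 by 0.93 and Ikzf2, the Ikaros relative Helios, by 0.87. Trib2, a pseudokinase that promotes the breakdown of C/EBP alpha, fell by 1.06 with overlapping arrays, and Myc, the growth regulator, fell by 0.81. The count of 8 became 5 without GMP GFP+ array 1 or 3 or PreGM GFP+ array 3. The count of 4 became 1 or 2 without any array but GMP GFP+ array 3. It became 0 with only the compared arrays, so Lmo2 and Ldb1 were not called there. Without GMP GFP+ array 1, PreGM GFP+ array 1 or PreGM GFP+ array 3 it was 1. Trib2 and Myc were both lost in those fits, so at most 1 of Lmo2 and Ldb1 was called. Leaving out 1 array moved the adjusted p to as much as 0.354 for Trib2 and 0.222 for Myc, and that of Mitf was 0.0578 without GMP GFP+ array 3.

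Gata1, Gata2 and the partners Zfpm1, Tal1 and Gfi1b did not pass. Gata2, a factor of mast cells and early progenitors, read 9.13, 9.74 and 10.16 in GMP GFP+, against 9.39, 9.81 and 9.92 in PreGM GFP+, for a difference of -0.03 (95% interval -0.42 to 0.36). Zfpm1, the Gata1 cofactor FOG1, averaged 7.60 ± 0.03 in GMP GFP+ and 8.21 ± 0.30 in PreGM GFP+ (difference -0.61, adjusted p = 0.217). The intervals were -0.12 to 0.37 for Tal1 and -0.58 to 0.16 for Gfi1b. The myeloid factor Spi1 (PU.1) averaged 7.57 in GMP GFP+ and 6.96 in PreGM GFP+ and Irf8, a factor of monocytes, averaged 6.67 and 6.92 in the same order (adjusted p = 0.737 and 0.954).

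**Figure D3:**
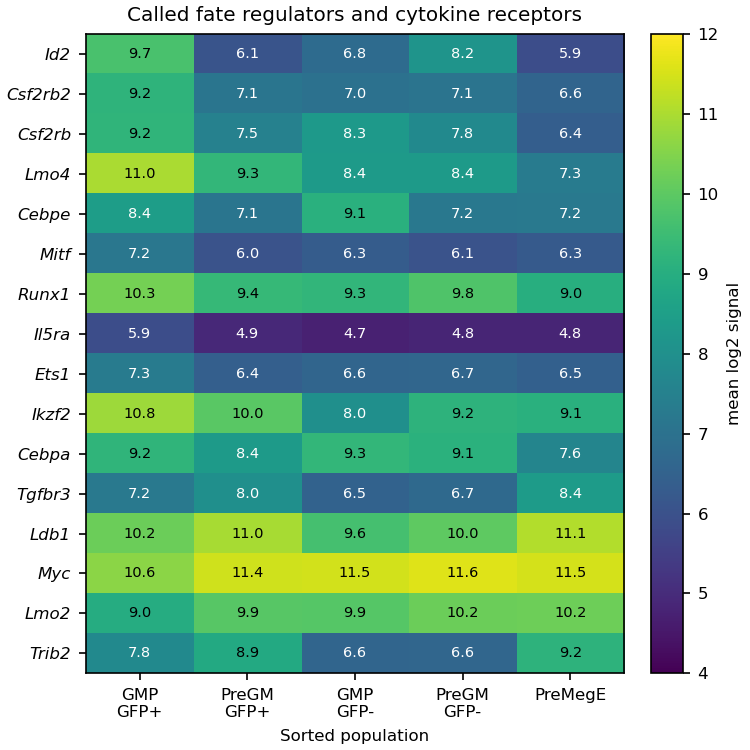
Mean log2 signal of the 16 called fate regulators and cytokine receptors (rows, ordered by the difference) in GMP GFP+, PreGM GFP+, GMP GFP-, PreGM GFP- and PreMegE (columns), printed in each cell and coloured by level. Id2 averaged 9.70 in GMP GFP+ and 6.08 in PreGM GFP+, and Lmo4 averaged 10.996 in GMP GFP+ and 9.30 in PreGM GFP+.

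Genes of the secretory pathway and the unfolded protein response were higher for 3 of 26 members and lower for 0 (11 and 0 at an unadjusted p under 0.05), with a median of 0.40. They were Xbp1 and Ern1, a transcription factor of that response and the kinase that splices its mRNA, which rose by 0.69 and 0.84, and the chaperone Calr, which rose by 0.67. In 12 of the 26 genes every GMP GFP+ array lay above every PreGM GFP+ array, against 7.17% of all genes. Without GMP GFP+ array 2 or array 3 or PreGM GFP+ array 1, only 1 of the 3 was called, and with only the compared arrays 0 were. Ern1 kept its call when PreGM GFP+ array 3 was left out but not when another array was (adjusted p up to 0.338). With the replicate number as a block in limma, Ern1 was not called either (adjusted p = 0.0772). Edem3 and P4hb, enzymes of protein quality control and folding in the endoplasmic reticulum that were not on the list and were chosen after their values were seen, rose by 2.13 and 0.997. In the opposite direction, 2 of 30 genes of ribosome biogenesis and Myc targets were lower, Myc and Gnl3, a nucleolar protein, and 0 were higher (13 and 0 at an unadjusted p under 0.05). The median was -0.39 and 16 of the 30 were separated toward lower values, against 5.86% of all genes. Without any of 5 of the 6 arrays neither was called. No gene of 29 for G2 and M phase passed in limma (0 at an unadjusted p under 0.05), nor any of 37 for S phase (1 higher and 3 lower) or of 24 for mitochondrial respiration (0). Their medians were 0.09, -0.23 and -0.11. Lists of interferon response and immediate early genes also had 0 of 21 and 0 of 24 called, with 0 higher and 2 lower, and 2 higher and 3 lower, at an unadjusted p under 0.05. Of 18 lymphoid priming genes, Cd53, Emb and the chromatin organiser Satb1 were higher and Mef2c was lower, and of 27 stem cell genes only Ifitm3, an antiviral membrane protein, was called (a fall of 0.66, lost without GMP GFP+ array 1 or PreGM GFP+ array 2).

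The reporter-negative cells of the same gates give the same step from arrays that are in neither reporter-positive group. There, 183 genes were higher in GMP GFP- than in PreGM GFP- (0.918%) and 94 were lower (0.471%). Of the 158 genes higher in the reporter-positive step, 29 were also higher in the reporter-negative step (18.4%, or 15.8% of its 183), 3 were lower and 126 were not called. Among the 45 lower genes, 3 were also lower (6.67%, or 3.19% of the 94), namely Car2, Tsc22d1 and Clic4, 1 was higher, Prkar2b, and 41 were not called. The median reporter-negative difference was 0.06 over the 158 higher genes and -0.20 over the 45 lower genes, against -0.01 over all genes. The shared rises included Ms4a3 (2.60 in the reporter-positive and 2.29 in the reporter-negative step), Nucb2 (2.995 and 2.44), Papss2 (2.93 and 2.12), Elane (1.76 and 2.60), Hdc (1.73 and 2.36) and Anxa1 (1.95 and 1.68). In the reporter-negative step, 10 of the 18 primary granule genes were higher and 0 lower, with a median of 1.26. Of the 25 late granule genes, 12 were higher there and 0 lower, with a median of 1.36. Satb1, Ikzf2 and Lat2 rose in reporter-positive cells and fell in reporter-negative cells. Satb1 read 9.18, 9.04 and 9.24 in GMP GFP+, against 7.79, 7.24 and 8.32 in PreGM GFP+, and averaged 8.98 in GMP GFP- and 10.25 in PreGM GFP- (differences 1.37 and -1.27). Ikzf2 differed by 0.87 and -1.19 and Lat2, an adaptor of IgE receptor signalling, by 0.87 and -0.63 in the same order.

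The difference between the steps was tested as an interaction, which was higher for 103 genes (0.517%) and lower for 37 (0.186%). The 103 became 67 without PreGM GFP+ array 2, and the 37 became 59 without PreGM GFP- array 1. The 158 and 45 genes were chosen by 1 of the steps that enter it, so their counts in it, 72 of 158 higher and 9 of 45 lower, are descriptions only. The difference was positive for 13 of the 38 mast and basophil genes and for 6 of the 14 eosinophil genes, and negative for 0 of both. It was 5.25 for Prg2, 4.95 for Ear6, 4.22 for Mcpt8, 4.17 for Gzmb and 4.98 for Id2 (limma adjusted p 6.79e-05, 6.77e-08, 5.36e-05, 7.63e-07 and 3.97e-06). Dntt, the polymerase that adds bases at antigen receptor joints, had a difference of 4.50 that came from the reporter-negative side: it averaged 5.53 in GMP GFP+ and 5.57 in PreGM GFP+, and 5.64 in GMP GFP- and 10.18 in PreGM GFP-. On the lower side Mfsd2b had -2.64, with means of 6.74 in GMP GFP- and 6.64 in PreGM GFP-. Genes of late neutrophil granules were among the most negative. Camp, the cathelicidin of those granules, averaged 7.44 in GMP GFP+ and 7.39 in PreGM GFP+, against 10.33 in GMP GFP- and 7.19 in PreGM GFP- (difference -3.08, adjusted p = 0.0239), and Chil3, a chitinase-like protein, had -2.76. Both calls were lost without several single arrays, with an adjusted p of up to 0.0888 for Camp and 0.15 for Chil3. Of the 18 primary granule genes 0 had a positive and 1 a negative difference, of the 25 late granule genes 0 and 4, and of the 28 monocyte and macrophage genes 3 (Ms4a6c, Clec12a and Cx3cr1) and 1 (Clec4a2).

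**Figure D4:**
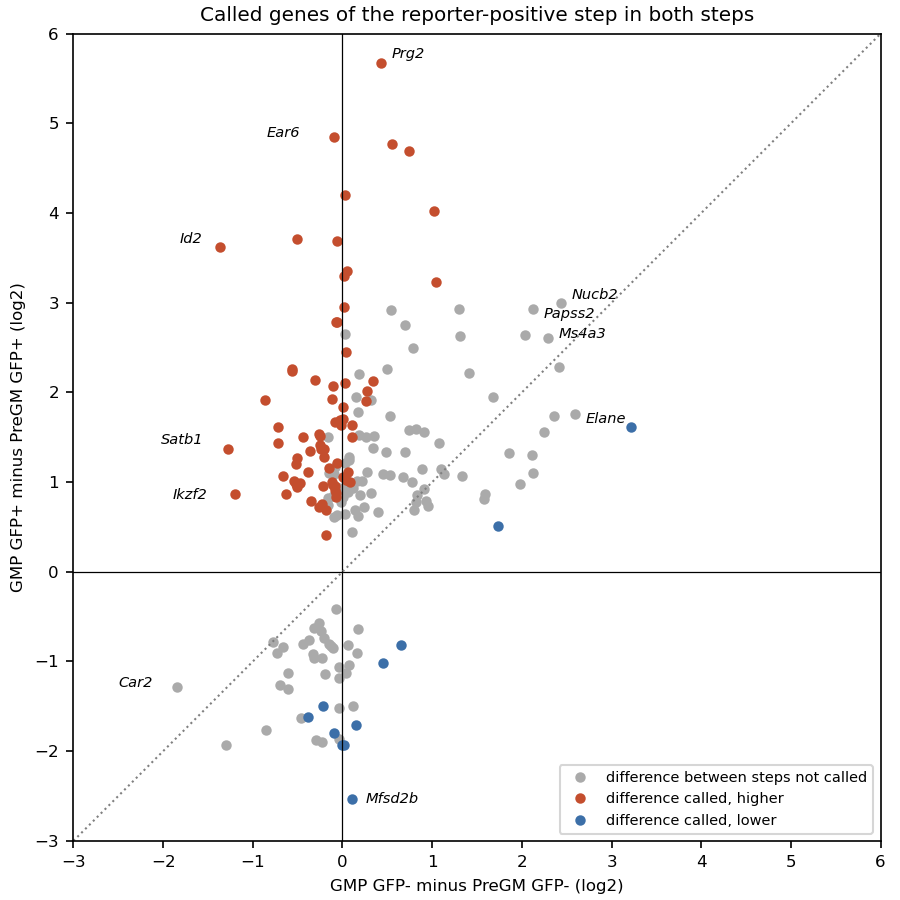
Log2 difference of the 203 called genes between GMP GFP+ and PreGM GFP+ (vertical axis) and between GMP GFP- and PreGM GFP- (horizontal axis), 1 point per gene, coloured by the test of the difference between the steps. The dotted line marks equal differences. Prg2, at 5.67 and 0.43, and Mfsd2b, at -2.53 and 0.11, lie close to the vertical axis, while Ms4a3, at 2.60 and 2.29, lies near the dotted line. The genes were chosen by the values on the vertical axis.

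PreMegE and GMP GFP- cells, which share no array with the reporter-positive step, give a measure of the erythroid and megakaryocyte against the granulocyte-macrophage direction. In PreMegE, 556 genes were higher (2.79%) and 1081 lower (5.42%) than in GMP GFP-. Of the 45 genes lower in GMP GFP+ than in PreGM GFP+, 33 were higher in PreMegE (73.3%, or 5.94% of the 556) and 1 was lower, Cdca7l. Of the 158 higher genes, 70 were lower in PreMegE (44.3%, or 6.48% of the 1081) and 9 were higher, Fcer1a and Ikzf2 among them. The median PreMegE minus GMP GFP- difference was 1.15 for the 45 lower genes, -0.40 for the 158 higher genes and 0.08 for all genes. Of the 15 largest falls, 13 were higher in PreMegE, all but Cd180 and Aqp11. Levels in PreGM GFP+ and PreMegE lay close for several of them: Mfsd2b averaged 10.25 in PreGM GFP+ and 10.28 in PreMegE, Aqp1 averaged 9.45 and 9.33, and Plxnc1 averaged 9.59 and 9.72. Of the 15 largest rises, 6 were lower in PreMegE than in GMP GFP- and 0 were higher. The eosinophil genes Ear6, Prg3 and Epx were dim in both of these groups, at most 6.61 on average.

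Some of the largest rises were neighbours in the genome. In the order of RefSeq genes on assembly GRCm38.p6, the 15 genes with the largest rise had 56 different measured neighbours within 2 measured genes on each side that were not among the 15 themselves. Of these, P2rx3 and Ctsg were higher (3.57%, against 0.792% of all genes) and 0 were lower. The 15 with the largest fall had 60 such neighbours, of which 0 were called. Prg2, Prg3 and P2rx3, an ATP-gated channel, follow each other on chromosome 2. P2rx3 read 9.66, 9.05 and 8.57 in GMP GFP+, against 6.74, 5.89 and 5.89 in PreGM GFP+ (difference 2.92, SE 0.41, adjusted p = 0.00019). The next measured genes on the other side of Prg2, Slc43a3 and Rtn4rl2, differed by 0.04 and -0.04. Mcpt8 and Ctsg are adjacent in the cluster of granule serine proteases on chromosome 14, where 13 genes were measured. Of these, 4 were higher and 0 lower. The cluster was chosen after the values were seen, so this count is a description only. Cma1, the mast cell chymase at one end, read 6.16, 6.67 and 6.98 in GMP GFP+, against 5.60, 5.57 and 5.56 in PreGM GFP+ (difference 1.03), so it stayed near the median signal. Gzmb lies at the other end. The mast cell proteases Mcpt1, Mcpt2 and Mcpt4 and the granzymes between Ctsg and Gzmb were not called and lay below the median signal in both groups.

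**Figure D5:**
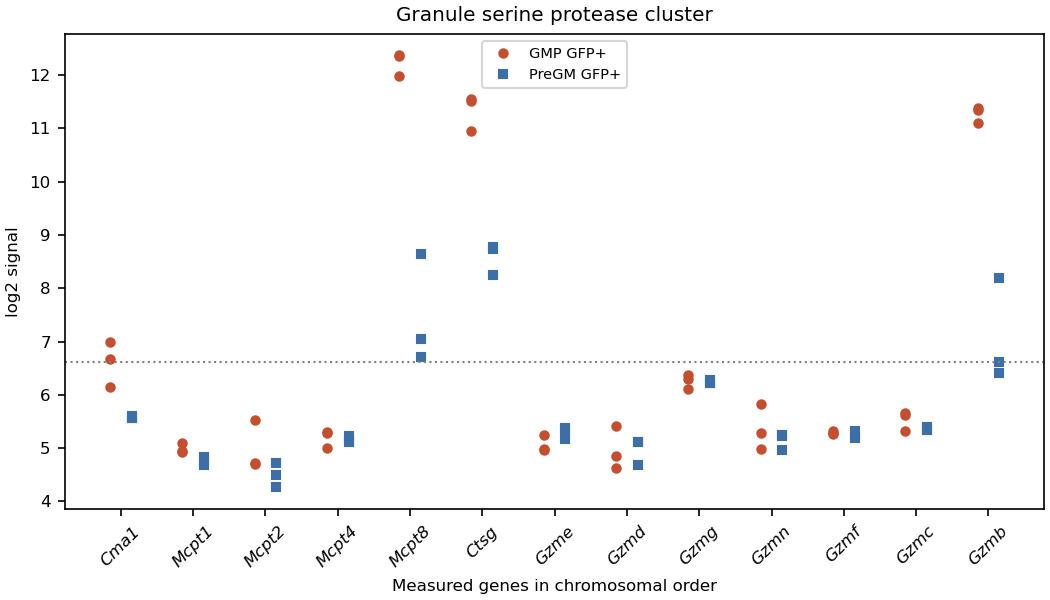
Log2 signal of the 13 measured genes of the granule serine protease cluster in chromosomal order, with circles for the 3 GMP GFP+ arrays and squares for the 3 PreGM GFP+ arrays, and the median of all values as a dotted line. Mcpt8, Ctsg and Gzmb lay at 10.96 or above in each GMP GFP+ array, and the genes between them did not exceed the median signal.

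Promoters of the named genes were read for the sequence that GATA factors bind, since both gates were sorted on a Gata1 reporter. The windows, from RefSeq on assembly GRCm38.p6, run from 250 bases before to 50 bases after the start of transcription, and the motifs searched on both strands were AGATAA or TGATAA and the same with a final G, AGATAG or TGATAG. At least 1 match was found in 46 of 123 windowed genes higher in GMP GFP+ (37.4%) and in 8 of 36 lower genes (22.2%), against 4371 of 15614 measured genes with a window (28.0%) and 24.5% of all 19177 promoters. A gene with several windows was counted as matched if any of them held a match, so such genes had more chances. A match is a description of the letters and not a binding site. Windows are shown for 4 genes that hold a match. They are 2 risers of the eosinophil and basophil lists and 2 fallers of the platelet and erythroid lists. They do not stand for the other named genes, and those without a match are listed below. The letters run 5′ to 3′ in the direction of the gene, with the matches in capitals. The window of Prg3 lies at chr2:84987965-84988264 on the plus strand with 1 match, and that of Prss34 at chr17:25298144-25298443 on the plus strand with 1 match close to the start. The window of Gp5 lies at chr16:30310732-30311031 on the minus strand with 3 matches, and that of Ces2g at chr8:104961468-104961767 on the plus strand with 2.
Prg3: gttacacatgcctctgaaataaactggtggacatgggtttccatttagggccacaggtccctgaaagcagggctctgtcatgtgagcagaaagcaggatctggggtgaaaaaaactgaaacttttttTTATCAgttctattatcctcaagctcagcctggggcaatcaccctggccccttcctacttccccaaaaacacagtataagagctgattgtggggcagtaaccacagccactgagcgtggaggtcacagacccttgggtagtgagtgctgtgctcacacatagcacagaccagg
Prss34: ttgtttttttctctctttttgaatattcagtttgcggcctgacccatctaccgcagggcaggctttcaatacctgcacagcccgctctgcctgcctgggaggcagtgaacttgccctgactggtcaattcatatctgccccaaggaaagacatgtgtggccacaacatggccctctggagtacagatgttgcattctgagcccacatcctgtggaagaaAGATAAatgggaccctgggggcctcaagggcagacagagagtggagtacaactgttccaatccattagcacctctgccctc
Gp5: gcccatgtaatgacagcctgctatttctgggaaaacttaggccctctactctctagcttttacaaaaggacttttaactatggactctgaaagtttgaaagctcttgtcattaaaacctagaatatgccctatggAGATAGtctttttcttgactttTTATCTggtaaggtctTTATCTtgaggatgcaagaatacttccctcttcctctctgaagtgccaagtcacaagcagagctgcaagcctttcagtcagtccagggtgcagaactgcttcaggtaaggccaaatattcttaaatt
Ces2g: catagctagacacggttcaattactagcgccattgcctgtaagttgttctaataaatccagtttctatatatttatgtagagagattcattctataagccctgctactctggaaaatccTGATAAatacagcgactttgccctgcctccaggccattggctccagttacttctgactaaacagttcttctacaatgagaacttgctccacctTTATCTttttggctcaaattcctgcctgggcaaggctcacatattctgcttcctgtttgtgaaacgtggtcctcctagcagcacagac
In Prg3 the first base of the match lay 123 bases before the start of transcription and in Prss34 31 bases before it. In Gp5 the matches began 115, 93 and 77 bases before the start, and in Ces2g 131 and 38 bases before it. Among the other large rises, Cd53, Il6 and Papss2 also held a match, and Ear6, Mcpt8, Gzmb, Rnase12, Ms4a6c, Id2, Epx, Clec12a and Nucb2 held none in this window. Among the falls, Aqp9 held 3 matches in a window and 0 in another. Mfsd2b, Plxnc1, Aqp1, Cd180, F2r, Aqp11, Epdr1 and Mef2c held none. Prg2, Slc14a1, Zg16, Smap2 and Car2 had no window in this search.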

How the data were processed

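Total RNA of sorted bone marrow cells was measured on 26 arrays of 8 groups, taken from the sample labels. The authors deposited 1 log2 value for each probe set and array. RMA and oligo are named, with no versions or order, per the submitters' processing notes. The base of the logarithm is not stated and was taken as 2. Raw intensities were not used here.

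Of 35556 probe sets, 21789 named 1 gene and were used. The brightest probe set stood for each of the 999 genes with several, which left 19938 genes. A linear model with 1 coefficient per group was fitted to all arrays in limma 3.58.1 under R 4.3.3, contrasts were tested by its empirical Bayes method, and genes were called at a Benjamini-Hochberg adjusted p under 0.05. Differences are those of the group named first minus the other, with the SD over arrays beside group means.

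The comparison, its members and the 27 gene lists (672 of 729 names measured) were chosen with earlier results of these data known. Lists are therefore described by counts and medians, with no test. Genes are named by rule: the 15 largest changes each way among called genes whose arrays do not overlap, the 8 largest each way in the difference between the steps, up to 6 called and 2 bright uncalled genes per list, and any regulator or receptor. Model identifiers and olfactory receptors were passed over. Names outside the rule, chosen after their values were seen, include P2rx3, Cyp11a1, Il17rb, Hrh4, Edem3, P4hb, Ms4a2, Hdc, Alox5, Cpa3, Fcer1g and genes listed after the first of a count. Gene order and promoters came from RefSeq tables of GRCm38.p6. Alternatives covered weights, centring, quantile normalization, a variance trend, a filter on dim genes, probe set averaging, a replicate block, the compared arrays alone and each array left out.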

Additional observations from a re-analysis of the deposited data

Results flagged for a closer look

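The reporter-positive step (GMP GFP+ minus PreGM GFP+) and the reporter-negative step (GMP GFP- minus PreGM GFP-) differed by the interaction test in limma for 42 of the genes named above or by the naming rule. That rule takes genes by the size of the reporter-positive step or of this difference, so the 42 is a description only. Over all genes the difference was higher for 0.517% and lower for 0.186%. All values in this paragraph are the reporter-positive step minus the reporter-negative step on the log2 scale. Among eosinophil genes the value was 5.25 for Prg2, 4.95 for Ear6, 3.95 for Prg3, 3.01 for Rnase12, 3.30 for Epx and 1.07 for Il5ra. Mast cell and basophil genes had 4.22 for Mcpt8, 4.17 for Gzmb, 3.29 for Prss34, 2.94 for Il6, 2.85 for Fcer1a, 2.81 for Milr1 and 1.62 for Ndst2. For genes of the monocyte and macrophage list it was 4.22 for Ms4a6c, 2.18 for Clec12a and 1.49 for Cx3cr1. Other leukocyte surface genes had 3.75 for Cd53, 2.87 for Emb, 1.51 for Gpr171, 1.23 for Ifitm1 and 1.84 for Pecam1. Cytokine and receptor genes had 2.18 for Csf2rb2, 1.72 for Ccl9 and 1.80 for Csf1. Regulators had 4.98 for Id2, 2.64 for Satb1, 1.69 for Lmo4 and 1.50 for Runx1, and the lymphoid polymerase Dntt had 4.50. The value of Ms4a6c had an adjusted p of 0.0124, which became 0.0516 without PreGM GFP+ array 2.

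The difference was negative for 3 of 33 erythroid genes, Mfsd2b (-2.64), Aqp1 (-1.70) and Ces2g (-1.86), and for 1 of 19 platelet genes, F2r (-1.23). It was positive for 0 of both lists. The other erythroid falls, among them Slc14a1 (-0.64) and Car2 (0.56), were not called in it. The difference was negative as well for Plxnc1 (-1.95) and Zg16 (-1.93). It was also negative for Camp (-3.08) and Chil3 (-2.76) of the late neutrophil granule list, Clec5a (-2.16) of the primary granule list and Clec4a2 (-2.44) of the monocyte and macrophage list, and for Ly6a2 (-2.51), Stom (-2.32) and Ptgr1 (-2.10). Stom, a red cell membrane protein, read 8.58, 7.97 and 8.40 in GMP GFP+, against 8.98, 9.49 and 9.33 in PreGM GFP+, and averaged 9.76 in GMP GFP- and 8.40 in PreGM GFP-, so its reporter-negative step was a rise of 1.37 (adjusted p = 0.0093). The call of Ptgr1 was lost without any of 4 single arrays, with an adjusted p of up to 0.0711.

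Among 38 named genes examined in the 4 GMP GFP- arrays, 2 had 1 array apart from the rest. Clec4a2, an inhibitory lectin receptor, read 7.90, 7.97, 8.10 and 6.94, with a gap of 0.834 of the range, and Clec5a, an activating lectin receptor, read 8.13, 8.06, 8.01 and 7.15, with a gap of 0.871. In both cases the fourth array was the low one. About 1 group in 20 is marked this way by chance, and the part of that array in other results is covered by the fits without it.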

How the results depend on the processing

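With only the arrays of the groups compared, 95 genes were higher and 21 lower, of which 86 and 14 were among the 158 and 45. Weighting arrays by estimated precision, a fit that stopped before its convergence tolerance, gave 221 higher and 127 lower, so that 63.5% of calls were higher, against 77.8%. At least 2-fold changes were 109 higher and 25 lower. Without 1 array of the step, counts ran from 105 to 134 higher and from 24 to 37 lower. For the difference between the steps they ran from 67 to 98 higher and from 30 to 59 lower. Centring arrays on their medians gave 133 higher and 44 lower genes, and 1 of the 3 secretory genes. The other alternatives gave 147 to 168 higher and 41 to 51 lower.

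Of the 30 genes named for the largest changes, 20 were called in every alternative, and the 10 that were not were all falls. Of 35 other called list genes 17 were called in every alternative, and of 16 named in the difference between the steps 12 were. None of these 30, 35 and 16 differences changed its sign under an alternative run. Other named differences, which include values near 0, were not recomputed. With only the compared arrays, the call of Fcer1a had an adjusted p of 0.0557, that of Emb 0.166, that of Ces2g 0.129 and that of Gp5 0.0894. The cause of these losses was not tested, although fewer arrays leave less information on the spread.

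Whether the replicate numbers pair the samples was not settled. Deviations of same-numbered arrays correlated at 0.02, 0.23 and 0.22. GMP GFP+ arrays 2 and 3 each correlated best with the PreGM GFP+ array of their own number. GMP GFP+ array 1 correlated best with PreGM GFP+ array 2 (0.07). With the replicate number as a block, 149 genes were higher and 43 lower, of which 144 and 41 were shared, and the calls of Ern1 (adjusted p = 0.0772) and Gstm1 (0.0506) were lost among the 30 and 35 genes above. The block fit of the difference between the steps gave 90 and 44.

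Signals below 6.61 limit the estimates for 66 of the higher genes.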

Other observations

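Other called genes, chosen after their values were seen, add surface and signalling genes to those described. Igsf6, Tyrobp, the adaptor DAP12 of activating myeloid receptors, Gpr65, an acid-sensing receptor, and Lair1, an inhibitory collagen receptor, rose in GMP GFP+ by 2.93, 1.78, 2.26 and 1.07. Cdh1, the adhesion protein E-cadherin, averaged 8.43 ± 0.37 in GMP GFP+ and 6.60 ± 0.09 in PreGM GFP+ (SD, n = 3 arrays each). Il15, the gene of a cytokine that sustains natural killer cells, averaged 7.88 ± 0.27 in GMP GFP+ and 5.96 ± 0.54 in PreGM GFP+ (SD, n = 3 arrays each). Trps1, an atypical GATA-family repressor, averaged 8.56 ± 0.38 in GMP GFP+ and 6.30 ± 0.20 in PreGM GFP+ (SD, n = 3 arrays each). Csrp3, a muscle LIM protein, and Scin, an actin-severing protein of secretory cells, were higher in GMP GFP+ by 1.42 and 1.28 and were both also higher in PreMegE than in GMP GFP-. On the falling side, Abcb4, a lipid transporter, fell by 1.14, Tnfaip2 by 1.18, Vamp5 by 1.13 and Gclm, a subunit of the enzyme that starts glutathione synthesis, by 0.96.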
